A study of Homo sapiens with 6 samples.

Results

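The genes described here are 47 genes of DNA replication: those that mark and license origins, unwind DNA and copy it at the fork, supply deoxynucleotides and load histones behind the fork. They were chosen by name, by a rule that uses no measured value, though the names were set with earlier results of these data known. All 47 were among the 31999 genes listed. RNA came from HEL, a human erythroleukemia cell line, in which 3 libraries carried the control hairpin (shCtrl) and 3 a hairpin against the immune receptor TMIGD2 (shTMIGD2), both expressed stably from lentiviral vectors. All 6 libraries were thus of 1 cell line, grown in RPMI with serum and antibiotics. The study's methods list 3 TMIGD2 hairpins, and which of them these libraries carried is not given in the sources used here. The study asked how loss of TMIGD2 changes transcription in these leukemia cells. The value used here is the authors' log2 CPM of each gene over all libraries, called mean log2 CPM. CPM is a gene's count scaled to the size of its library. Whether log values were averaged, or the log was taken of an average, is not given in the sources used here. Genes are called expressed here at a mean log2 CPM of 0 or more, which 14000 reached. The mean log2 CPM pools shCtrl with shTMIGD2 and has no value per library. No difference between the hairpins is therefore given, no replicate error can be attached to a level, and the depth of the libraries is unknown.

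Replication is prepared in G1 phase, when the origin recognition complex (ORC), CDC6 and CDT1 load the ring of MCM2, MCM3, MCM4, MCM5, MCM6 and MCM7 onto DNA. In S phase CDC45 and the GINS complex join this ring to form the active helicase, polymerase alpha-primase lays down primers, and polymerases epsilon and delta extend the leading and lagging strands on the sliding clamp PCNA. Many of these genes are known targets of E2F transcription factors, which the retinoblastoma protein RB1 restrains until cells commit to S phase.

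Reference windows from RefSeq (GRCh38.p14), reaching from 250 bases before to 50 bases after the start of transcription, were held for 41 of the 47 genes. MCM4, MCM5, GINS4, POLD3, RPA2 and RPA3 had none. An E2F motif, searched as TTTCCCGC, TTTCGCGC, TTTGCCGC or TTTGGCGC on both strands, was found in 19 of the 41, or 46.3%. The same search matched 3.99% of all 27305 genes with a window and 6.73% of the 9572 of them that were expressed. In lists of related genes it matched 5 of 11 E2F and RB genes (45.5%) and 12 of 39 other genes of the replication pathway (30.8%). The 25 matches began at positions -187 to 8 from the start, with a median of -39, and 7 of them shared bases with another searched word. The following stretches each show 1 match, in the gene of each complex with the highest level per kb of the union of exons among those that had a match, with the E2F motif in capitals as it reads on the strand of the gene. MCM3 had 2 matches, at positions -174 and -4, and the first is shown.

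MCM3 (chr6:52284898-52284927, minus strand): cggatggtacgTTTCCCGCcaccgcggggc
ORC3 (chr6:87590112-87590141, plus strand): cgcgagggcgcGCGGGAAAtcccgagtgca
CDT1 (chr16:88803743-88803772, plus strand): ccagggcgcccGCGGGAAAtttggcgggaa
GINS2 (chr16:85688967-85688996, minus strand): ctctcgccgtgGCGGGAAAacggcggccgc
PCNA (chr20:5126663-5126692, minus strand): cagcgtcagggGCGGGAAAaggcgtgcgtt
POLA1 (chrX:24693770-24693799, plus strand): gtcatcacaggGCGCCAAAcgcgcgtccgc
POLE (chr12:132687342-132687371, minus strand): tgggtgggagcGCGCCAAAtttctcccctg
LIG1 (chr19:48170440-48170469, minus strand): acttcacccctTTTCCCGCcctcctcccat
TYMS (chr18:657603-657632, plus strand): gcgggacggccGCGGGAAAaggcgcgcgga

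In MCM6 and MCM2 the motif occurred on both strands at once, so that words overlapped, and the capitals mark the joined words. These stretches were picked after the matches had been seen.

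MCM6, far site (chr2:135876575-135876604, minus strand): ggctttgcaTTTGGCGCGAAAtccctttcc
MCM6, near site (chr2:135876513-135876542, minus strand): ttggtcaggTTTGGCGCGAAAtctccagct
MCM2 (chr3:127598404-127598433, plus strand): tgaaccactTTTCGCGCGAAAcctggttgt

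The matches were spread unevenly over the complexes. All 4 MCM ring genes with a window held an E2F motif (MCM2, MCM3, MCM6 and MCM7), as did all 3 GINS genes with one (GINS1, GINS2 and GINS3) and both polymerase epsilon genes (POLE and POLE2). Among the licensing and activation genes it was 3 of 5, namely CDC6, CDT1 and the CDT1 inhibitor GMNN. Of 6 ORC genes only ORC3 matched. The clamp and its loader matched in 2 of 6 genes, alpha-primase in 2 of 4, FEN1 and LIG1 in 1 of 2 and the nucleotide genes in 1 of 4. No match was found for POLD1, POLD2, RPA1, CHAF1A or CHAF1B. For all 22 genes without a match, ORC1 among them, this says only that these words are not in these windows. The windows of the 41 genes had a median GC content of 65.7%, against 58.3% over all genes, and the E2F words are rich in G and C. Among the 20229 genes whose windows lay within the GC range of the replication genes (45.7% to 78.3%), 5.01% held the motif. Their median GC content was 61.7%, so this range matches the replication genes only in part. Of the 8726 expressed genes within the range, 7.06% held the motif. Among the 7996 genes at or above the median GC content of the replication genes it was 5.94%.

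**Figure D1:**
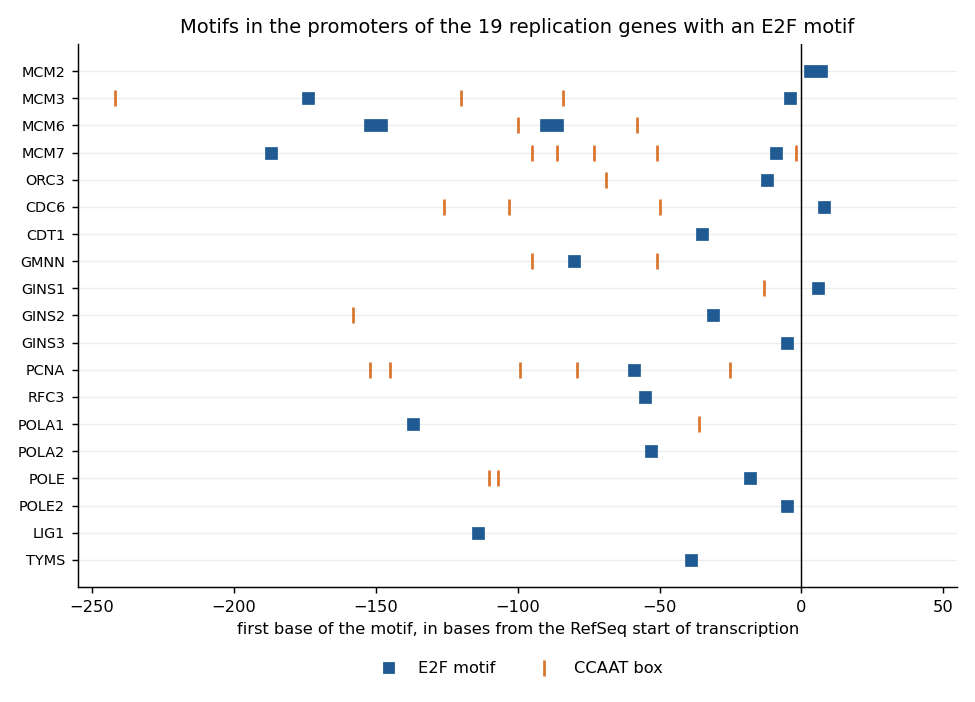
Each row is 1 of the 19 replication genes with an E2F motif, and the x axis gives the first base of a motif in bases from the RefSeq start of transcription (black line). Squares are E2F motifs and ticks are CCAAT boxes, with all windows of a gene drawn in its row, and 19 of the 25 E2F motifs begin within 100 bases before the start or after it.

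Other elements were searched in the same windows. The CHR, a cell cycle element searched as TTTGAA, was in 1 of the 41 genes with a window (RRM1), or 2.44%. It was in 18.2% of all genes and 13.6% of the expressed ones. Of the other genes of the replication pathway 5 of 39 held it (12.8%), and of the E2F and RB genes 3 of 11 (27.3%). This word is rich in A and T, while the windows of the replication genes were richer in G and C than those of all genes. The part of this base content in the low share was not tested. In a list of 20 mitotic genes, 17 had a window and 12 of these held TTTGAA, or 70.6%, while 2 held an E2F motif, or 11.8%. The CCAAT box, bound by NF-Y and searched as CCAAT, was in 25 of 41 replication genes (61.0%) and in 13 of 17 mitotic genes (76.5%). It was in 22 of 39 other pathway genes (56.4%) and 5 of 11 E2F and RB genes (45.5%), in 39.7% of all genes and in 43.6% of the expressed ones. A full cyclic AMP response element, TGACGTCA, was searched because the study followed the CREB transcription factor, which binds it. It was in MCM10, the initiation factor, and in RFC1 and RFC3, subunits of the clamp loader, or 7.32% of the 41, against 2.25% of all genes and 3.71% of the expressed ones. It was also in 2 of the 17 mitotic genes (11.8%), and with so few genes these shares are only a description. The response element is in capitals in the stretches of these 3 genes.

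MCM10 (chr10:13161518-13161547, plus strand): ccgcgtgcgtcTGACGTCAaggcaggggcg
RFC1 (chr4:39366367-39366396, minus strand): ctcgcgcctccTGACGTCAtcaccgcgcgc
RFC3 (chr13:33818060-33818089, plus strand): gcgaccggtagTGACGTCAcgagatttgga

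**Figure D2:**
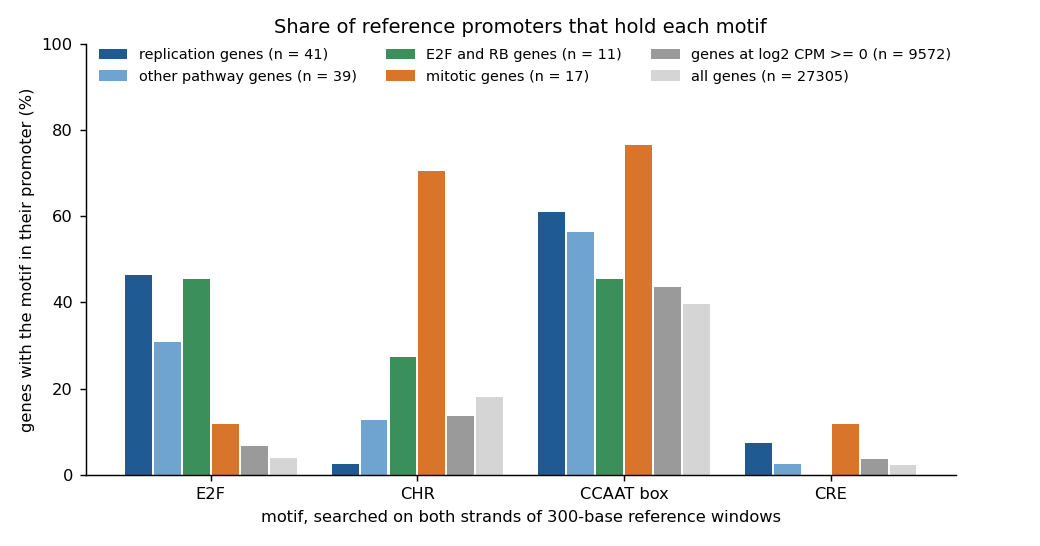
Bars give the percentage of genes whose reference promoter window holds each motif, for 4 gene lists and 2 backgrounds, with the number of genes that had a window in the key. The replication genes (dark blue) reach 46.3% for E2F and 2.44% for CHR, and the mitotic genes (orange) 11.8% and 70.6%.

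The label of the cells was checked against markers. Of 14 erythroid and megakaryocytic markers all had a mean log2 CPM above 0, from 2.27 for the embryonic globin HBE1 to 9.72 for the fetal globin HBG1 and 10.54 for the platelet integrin ITGA2B, with the heme enzyme ALAS2 at 6.26. Markers of other cells were low, with values under 0 for the epithelial genes EPCAM and CDH1, the collagens COL1A1, COL1A2 and COL3A1, the liver genes ALB and APOA1, and the lymphocyte genes CD3G, CD8A, TRAC and PAX5. CD3D, CD3E, MS4A1, KRT5, KRT14 and PDGFRA were looked up and had no value here. The exceptions were CD2 at 2.95, CD79A at 2.32 and CD79B at 1.46. TMIGD2 itself had a mean log2 CPM of 4.08 over both hairpins. This pooled value cannot show the knockdown.

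All 47 replication genes were expressed by this limit. Their mean log2 CPM ran from 3.50 for GINS3 to 9.07 for MCM4, with a median of 6.32, while the median over all genes listed was -0.97. Together they took 0.592% of the summed CPM. In the order of all 31999 genes the median replication gene stood at the percentile 90.7, and 26 of the 47 were in the top 10 percent. Among the 14000 expressed genes the median replication gene stood at the percentile 78.8, 42 of the 47 lay above the median of 4.55, and 13 were in the top 10 percent. The 5 genes that did not reach that median were ORC5, GINS3, POLA2, POLE2 and RPA3.

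**Figure D3:**
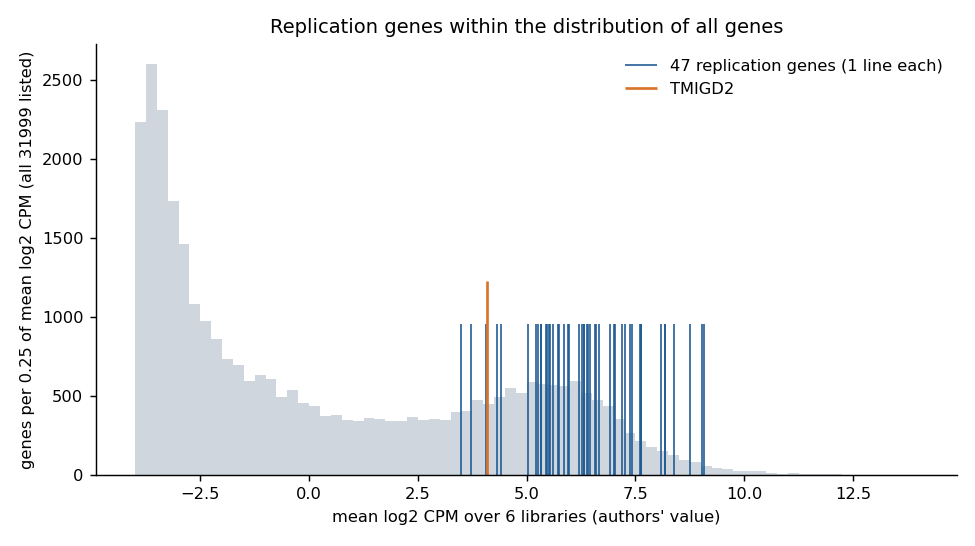
The histogram shows the mean log2 CPM of all 31999 genes listed, in steps of 0.25 on that scale, and each blue line is 1 of the 47 replication genes. They lie between 3.50 and 9.07, in the upper hump of the distribution, with TMIGD2 (orange) at 4.08.

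Levels of different genes were compared per length, as CPM per kb, by dividing CPM by the union of all annotated exons of a gene in GENCODE 44. This union can be much longer than the transcript a cell makes. The authors counted over a refSeq annotation, so exons found only in GENCODE add length without counts. How far this lowers the level of each gene was not tested. The level per kb of the MANE Select transcript, the reference transcript of each gene, is therefore given beside it as the second value. The second value was 1 to 4.98 times the first, with a median ratio of 1.45. Where the order of 2 genes changes between the lengths it is not settled by these data, and no order can be set against the spread between libraries.

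The MCM ring had the highest median of the 12 groups under both lengths. Its 6 genes had a mean log2 CPM between 8.09 (MCM5) and 9.07 (MCM4), all of them within the top 652 genes listed, with a median of 64.7 CPM per kb. MCM3 was the highest under both lengths, at 118 and 141 CPM per kb. MCM7, MCM4 and MCM2 had 67.6, 54.6 and 61.8 by the union and 136, 132 and 84.9 by the MANE Select transcript. MCM6 had 69.7 and 76.8 and MCM5 had 37.4 and 78.7, so which of the ring genes was the lowest changed with the length. The highest exceeded the lowest 3.16-fold by the union of exons and 1.83-fold by the MANE Select transcript. The 6 proteins occupy the ring in equal numbers.

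The ORC genes, whose products bind origins throughout licensing, were lower. Their median was 9.60 CPM per kb. ORC1, the subunit that is known to vary through the cell cycle, was the highest at 25.7 by either length, since its annotated exons match its MANE Select transcript. ORC3 had 10.7 and 17.6 CPM per kb and ORC2 had 10.6 and 14.4. ORC6 stood at 8.63 and 23.0, which moved it from the fourth to the second place. ORC4 (6.02 and 8.20) and ORC5 (4.51 and 8.73) were the lowest, in an order that changed with the length.

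CDT1, which brings the MCM ring to origins, had 59.7 and 61.9 CPM per kb, and its inhibitor GMNN had 35.6 and 69.8. Which of the pair was higher thus depended on the length. CDC6, the ATPase that loads the ring with ORC, had 19.2 and 22.3. MCM10, which helps to start the helicase, had 17.3 and 20.7, and CDC45, a part of the active helicase, 15.7 and 24.8.

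GINS, the other part of the active helicase, was far below the MCM ring it joins. GINS2 had 10.2 and 12.5 CPM per kb, GINS4 had 8.99 and 12.99 and GINS1 had 6.60 and 16.0. GINS3 was the lowest under both lengths, at 2.22 and 5.15, and also the lowest of the 47 genes by mean log2 CPM. The median of the 4 GINS genes was 7.80 CPM per kb, against 64.7 for the 6 MCM genes.

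PCNA, the sliding clamp, had the highest level per kb of all 47 genes by the union of exons, at 138 CPM per kb, and 152 by its MANE Select transcript. By the MANE Select transcript RRM2 was higher, at 159, so the first place changed with the length. The PCNA gene occupies bases 5114953 to 5126626 of chromosome 20 (GRCh38) and is read from the minus strand. The annotation lists 3 pseudogenes of PCNA, which could share reads with it. The 5 subunits of its loader, which opens and closes the ring, were lower. RFC3 had 27.8 and 34.4 CPM per kb, RFC4 had 25.9 and 56.8, RFC2 had 20.6 and 27.1, RFC1 had 19.3 and 26.6 and RFC5 had 13.4 and 20.7. PCNA exceeded RFC5 by 10.3-fold under the union of exons and by 7.36-fold under the MANE Select transcript. The clamp is a trimer of PCNA, and the loader holds a single copy of each RFC subunit.

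Alpha-primase had a median of 5.43 CPM per kb by the union of exons and 14.1 by the MANE Select transcript, and polymerase epsilon 8.60 and 14.1. PRIM1, the catalytic primase subunit, had 12.1 and 28.2 CPM per kb, PRIM2, its partner, 6.81 and 16.7, and POLA1, the catalytic polymerase subunit, 4.05 and 11.5. POLA2, the second subunit of the polymerase, had 1.09 and 3.71 and was the lowest of all 47 genes per kb under both lengths. Of the PRIM1 transcript, 3.44% is shared with exons of NACA on the same strand and 8.64% lies opposite exons of HSD17B6. POLA2 lies on chromosome 11 from 65261913 to 65305959, where its annotated exons cover 12006 bases in all and its MANE Select transcript 3544. For polymerase delta, the catalytic POLD1 had 29.5 and 42.4 CPM per kb, POLD2 had 15.2 and 75.6, and POLD3 had 7.30 and 10.6. POLD2 showed the largest effect of the length of all 47 genes, 4.98-fold, because its exons in 68 annotated transcripts add up to 8005 bases and its MANE Select transcript has 1609. For polymerase epsilon, the catalytic POLE had 10.4 and 16.4 CPM per kb and POLE2 had 6.80 and 11.8. Before division by length POLE exceeded POLE2 by 6.43-fold, and per kb by 1.53-fold.

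RPA, which coats single-stranded DNA as a trimer of 1 copy each, showed the widest range within a complex. RPA2 had 100.1 and 125 CPM per kb, RPA1 had 36.1 and 40.9, and RPA3, the smallest subunit, had 6.54 and 10.5. RPA2 exceeded RPA3 by 15.3-fold and by 11.96-fold. Of the MANE Select transcript of RPA3, 5.84% lies opposite exons of UMAD1, and the annotation lists pseudogene copies of both RPA2 and RPA3. Their part in the difference was not tested.

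The flap nuclease FEN1, which trims Okazaki fragments, had 38.0 and 41.5 CPM per kb, and LIG1, the ligase that seals them, had 7.47 and 27.1. Before division by length both were alike, at 6.38 and 6.41 on the log2 CPM scale.

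Nucleotide supply genes were high. RRM2, the subunit of ribonucleotide reductase that limits its activity in S phase, had a mean log2 CPM of 9.02, the second highest of the 47 after MCM4. It had 56.7 and 159 CPM per kb, with 3 pseudogenes annotated, and its partner RRM1 had 40.6 and 54.6. TK1, the thymidine kinase of the salvage pathway, had 82.4 and 106. TYMS, which makes thymidylate anew, had 23.8 and 35.7 and was the lowest of the 4 under both lengths. Of the MANE Select transcript of TYMS, 66.5% is covered on the opposite strand by exons of ENOSF1 and TYMSOS. The libraries kept strand, but whether the authors' counting used it is not given in the sources used here, so the level of TYMS is uncertain. Pseudogenes named as the gene with P and a number added are annotated for 10 of the 47 genes. These are ORC1, PCNA, RFC3, RFC5, POLD2, FEN1, RPA2, RPA3, RRM2 and TYMS. Reads shared with such copies could have been lost or split in counting. Copies under other names were not searched for, so the remaining genes may have some too.

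CAF-1 places new histones on replicated DNA. Its large subunit CHAF1A had 22.5 and 28.9 CPM per kb and CHAF1B had 14.5 and 16.6.

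**Figure D4:**
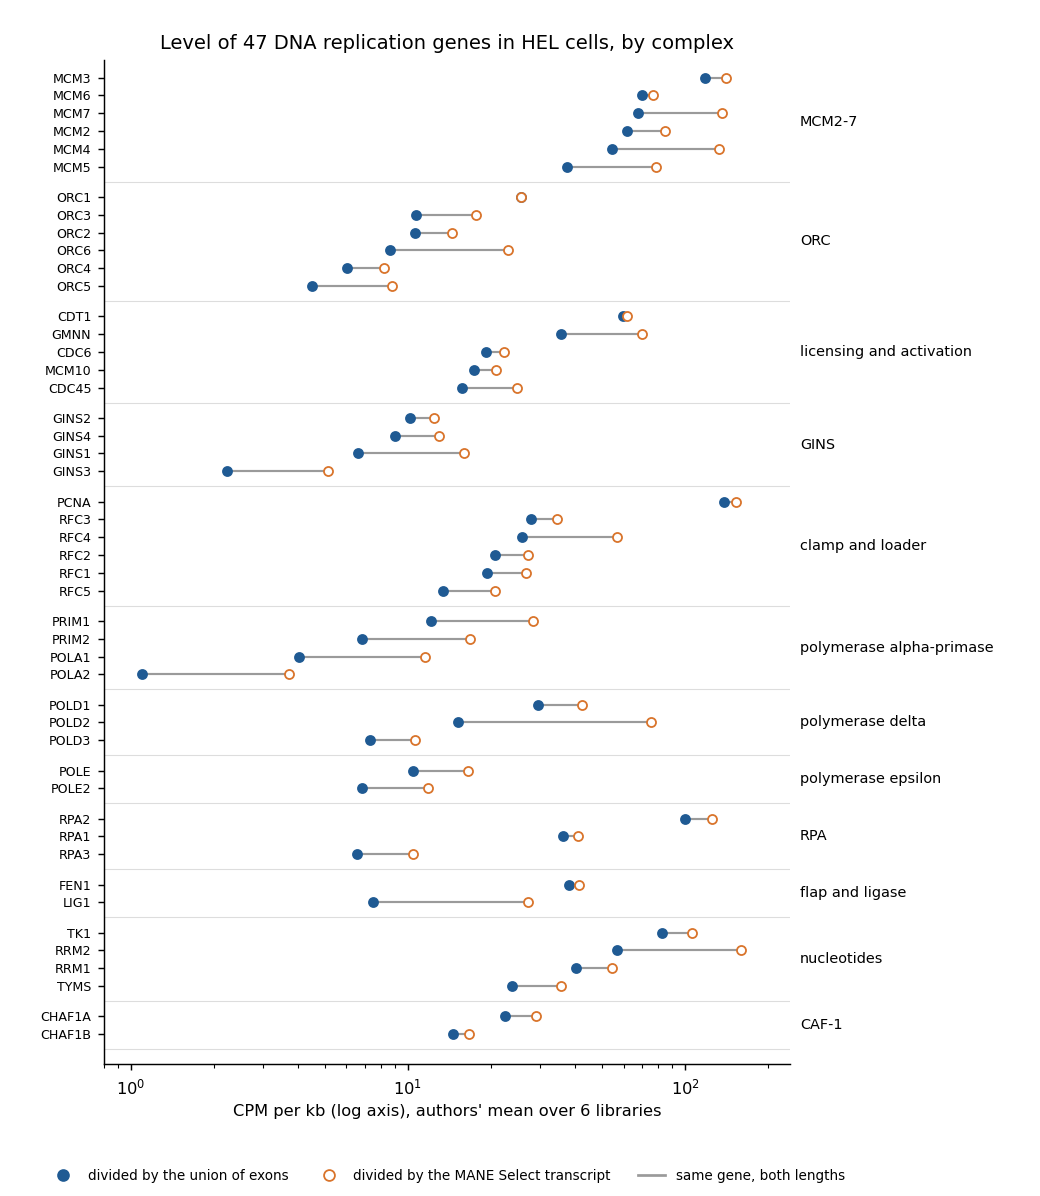
Each row is 1 of the 47 replication genes, grouped by complex, and the log axis gives CPM per kb from the authors' mean over 6 libraries. Filled points divide by the union of exons and open points by the MANE Select transcript, and the line between them shows the effect of the length, from none for ORC1 to 4.98-fold for POLD2. There are no error bars because no value per library was used.

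The 19 genes with an E2F motif had a median of 19.2 CPM per kb and a range of 1.09 to 138. The 22 genes with a window but no motif had a median of 18.3 and a range of 4.51 to 82.4.

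A further 48 names of the replication pathway were looked up, of which 47 were listed. The 48th, AND1, is an alias of WDHD1, which is also on the list. Of the 47, 46 were expressed. The highest were DNMT1, the maintenance DNA methyltransferase, at 9.62 and TOP2A, the topoisomerase that untangles sister chromatids, at 9.56. The lowest were TK2, the mitochondrial thymidine kinase, at 1.04 and RNASEH2A, the catalytic subunit of RNase H2, at -0.56. Its partners RNASEH2B and RNASEH2C had 6.16 and 6.07 and were named after their values were seen, and 40.5% of the RNASEH2C transcript lies opposite exons of KAT5. Exons of THSD8 on the same strand cover 94.1% of the MANE Select transcript of RNASEH2A, and the part of this overlap in its low level was not tested.

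Per kb of the union of exons the median replication gene had 19.2 CPM per kb, the median of the other pathway genes was 15.7, that of the 20 mitotic genes 25.7 and that of 13 E2F and RB genes 13.7. The median over the expressed genes that had a matched length was 5.35. The mitotic genes ran from CENPA (mean log2 CPM 5.32), the centromeric histone, and NUF2 (5.38) to CENPF (8.14) and BUB1 (8.37), the checkpoint kinase. The E2F and RB genes ran from E2F5 (3.54) and E2F8 (4.001) to TFDP2 (7.51) and TFDP1 (7.71), the dimerization partner of E2F. The highest replication gene had 138 CPM per kb, the highest of the other pathway genes 119, the highest mitotic gene 57.4 and the highest E2F and RB gene 55.9.

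**Figure D5:**
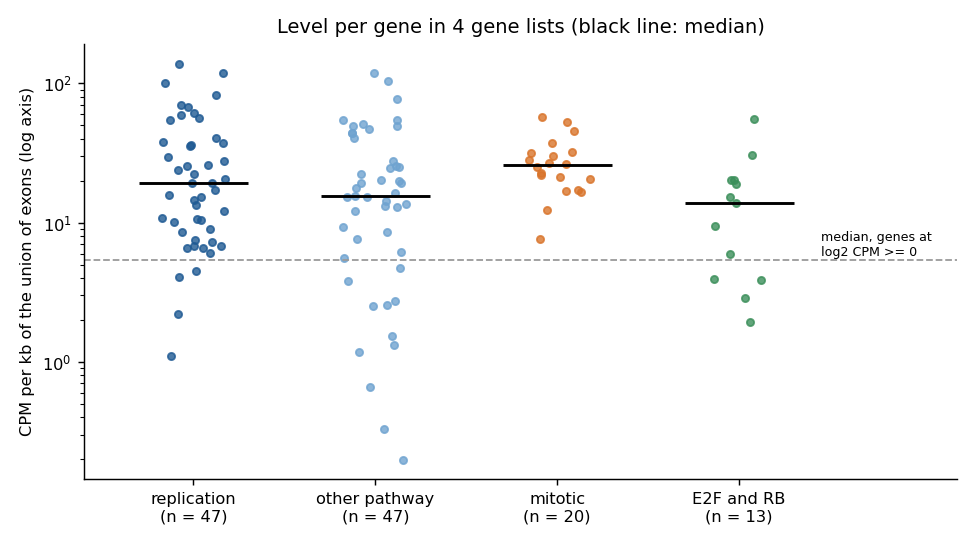
Each point is 1 gene, the log axis gives CPM per kb of the union of exons, and black lines are medians of 19.2, 15.7, 25.7 and 13.7 for the replication, other pathway, mitotic, and E2F and RB genes. The dashed line is the median of 5.35 over expressed genes that had a matched length.

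Replication genes were often found head to head with another gene. In GENCODE 44, 14 of the 47 (29.8%) had a protein-coding gene on the other strand that starts within 1000 bases upstream, compared with 8.54% of all 20046 protein-coding genes and 11.7% of the expressed ones. The start used here is the outermost annotated start of a gene. It can lie far from the RefSeq start used for the promoter windows, so some pairs may rest on a distant alternative start. The closest pair was MCM4 with PRKDC, the catalytic subunit of DNA-dependent protein kinase, whose annotated starts are 7 bases apart. Both were high, at 132 and 114 CPM per kb of the MANE Select transcript. In ORC3 and RARS2, 39 bases apart, the levels were 17.6 and 13.2, and in GINS1 and ABHD12, 173 bases apart, 16.0 and 15.3. Other pairs were unequal, such as PCNA with CDS2, 253 bases apart, at 152 and 4.40, and TK1 with AFMID at 106 and 25.0. For GINS3, whose partner is PRSS54, the name of the partner was not among the genes listed, so it has no level here.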

How the data were processed

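RNA of 3 shCtrl and 3 shTMIGD2 HEL libraries, grouped by their labels, was sequenced after poly(A) enrichment with a directional kit. The authors aligned reads to hg38 with STAR 2.6.1b and counted fragments per gene of a refSeq annotation with HTSeq 0.6.1. Their deposited table gives 1 mean log2 CPM per gene over the libraries, and 2 raised to these values summed to 1002514 over 31999 genes. The remaining 4 columns hold the authors' own comparison of shTMIGD2 with shCtrl (log2 fold change, F statistic, p-value and adjusted p-value by the authors) and were not used. The planned count tests need values per library and were not run.

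CPM was divided by exon lengths of GENCODE 44 (GRCh38, the build of hg38), where 22987 gene names matched by symbol and 586 by a RefSeq synonym. The percentile is the share of listed genes with a lower value. Promoter windows came from RefSeq (GRCh38.p14), and motifs were searched with Python 3.11.15 and numpy 2.4.6 after a check on simulated sequences. A gene counted as having a motif if any of its windows did. A gene listed at a mean log2 CPM of 0 or more was called expressed. All 47 genes, and the 2 highest and 2 lowest of each other list, were to be named. The members and lists were chosen with earlier results of these data known. The other 8426 gene names were not matched, so these genes have no level per kb. Of the gene names, 24 read as dates and could not be matched. Protein sequences were not analysed here.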

Additional observations from a re-analysis of the deposited data

How the results depend on the processing

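No paired analysis was possible because the values used are 1 mean per gene over all libraries. For the same reason DESeq2 in place of edgeR, DESeq2 size factors, the fit with no filter and leaving out each library were not run. A value counted as moved from 1.5-fold. The median level of the replication genes (19.2 CPM per kb), their median percentile (90.7) and the medians of the other lists moved by less under each length or ranking tried. With the longest transcript 20 of the 47 single levels moved and with the MANE Select transcript 23, all upward, since the union of exons is never shorter. The highest gene of a complex stayed the same between union and MANE Select transcript in 8 of 12 complexes and the lowest in 9. The ratio of highest to lowest moved as follows. By MANE Select transcript it was 1.83 for the MCM ring, 3.13 for ORC, 7.13 for polymerase delta and 1.53 for FEN1 and LIG1. By the longest transcript it was 3.21 for ORC, 6.29 for alpha-primase and 2.10 for FEN1 and LIG1. With no division by length it was 1.98 for the MCM ring, 4.46 for PCNA and its loader, 4.79 for alpha-primase, 6.43 for polymerase epsilon, 9.38 for RPA, 1.015 for FEN1 and LIG1 and 8.996 for the nucleotide genes. Each of these follows from the length used. With only the last 100 bases before the start and those after it, CHR was in 0% of the replication genes and 8.46% of all genes, and E2F, CCAAT and the response element were in 41.5%, 48.8% and 7.32% of the replication genes. All genes then had E2F in 2.07% and CCAAT in 25.3%. Against expressed genes, the background was 6.73% for E2F and 3.71% for the response element.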
